A study of Homo sapiens with 12 samples.

Results

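Promoter regions that gained both total H2A.Z and acetylated H2A.Z (H2A.Zac) in cells with a TRRAP-free EP400 were examined. They were chosen from the deposited lists of changed regions as gained H2A.Zac regions that overlap a 2-kb window centered on the transcription start site (TSS) of a gene and have at least 25% of their length covered by gained H2A.Z regions. Of 9404 TSS-proximal gained H2A.Zac regions, 1838 met this rule, a share of 19.5% (Wilson 95% confidence interval, 18.8 to 20.4%), and they are called doubly gained regions here. They were 5.75% of the 31938 TSS-proximal H2A.Zac regions of any class. At least 1 doubly gained region lay within 1 kb of the TSS of 2496 genes, 12.1% of the 20666 genes with any H2A.Zac region there, and 1577 of these were protein-coding, 12.6% of 12472. Since the gains themselves chose the regions, these numbers describe the selection.

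H2A.Z is a variant of histone H2A that is placed into the nucleosomes flanking the TSSs of many genes. The TIP60 complex contains EP400, an ATP-dependent remodeler that exchanges H2A for H2A.Z, and the acetyltransferase KAT5, which acetylates histone tails, including that of H2A.Z. TRRAP is a very large scaffold protein that contacts transcription activators and is shared with the SAGA complex. Acetylated H2A.Z is known as a mark of active promoters.

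The libraries were made from K562, an established line from human chronic myeloid leukemia. Both lines carried the same changes apart from the EP400 they were given back, namely homozygous FKBP12F36V tags on endogenous EP400, its degradation with 500 nM dTAGV-1 for 24 h, and an exogenous EP400 expressed from the AAVS1 locus. The WT line received full-length EP400 and the ΔTRRAP line received EP400 without its SANT and HD domains, which hold TRRAP. The 12 libraries were 2 biological replicates of input, of H2A.Z ChIP and of H2A.Zac ChIP for either line. Each line was 1 clone, so a difference between the forms of EP400 and a difference between clones cannot be told apart. The labels call the cells lymphoblasts. Of 11 erythroid marker genes, which K562 cells are known to express, 10 had a listed H2A.Zac region at their TSS (GATA1 did not), against 6 of 11 lymphoid ones, and PAX5, MS4A1, DNTT and RAG2 were among those without.

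The only value of a region in these lists is the authors' log10 likelihood ratio, which compares the merged replicates of both lines at a cutoff of 3. It reflects the depth of the libraries as well as the size of the difference and is not a fold change. No value per replicate and no read count exist in the lists, so the depth is unknown, no spread between replicates can be given and no test across conditions was made. The intervals below cover the counting of regions or genes only, and neighboring regions are not independent. A higher level in bulk chromatin can mean more cells with the mark or more of the mark per cell, which cannot be told apart.

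To show the range of promoter sequences at these regions, 8 are printed. They are the 3 protein-coding genes with the highest H2A.Zac ratio (DTNA, ZNF608, RIPOR2), the 3 with the highest H2A.Z ratio (ZNF595, BOD1 and again ZNF608), DACH1, which the study discusses, and, chosen for composition and not for their ratios, the named genes whose regions had the lowest and the highest GC content (EPC1, DUSP8). Each run is the 200 bases just upstream of the TSS on the strand of the gene in hg38, 5′ to 3′, with CpG dinucleotides in capitals.
DTNA: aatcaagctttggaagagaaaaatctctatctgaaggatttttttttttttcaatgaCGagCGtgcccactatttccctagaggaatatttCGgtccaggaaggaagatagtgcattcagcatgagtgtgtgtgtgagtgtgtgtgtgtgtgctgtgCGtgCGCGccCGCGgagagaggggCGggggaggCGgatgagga
ZNF608: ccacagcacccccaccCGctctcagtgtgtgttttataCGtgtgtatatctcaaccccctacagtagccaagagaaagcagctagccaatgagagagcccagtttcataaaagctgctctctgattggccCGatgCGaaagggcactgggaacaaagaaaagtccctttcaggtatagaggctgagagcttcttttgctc
RIPOR2: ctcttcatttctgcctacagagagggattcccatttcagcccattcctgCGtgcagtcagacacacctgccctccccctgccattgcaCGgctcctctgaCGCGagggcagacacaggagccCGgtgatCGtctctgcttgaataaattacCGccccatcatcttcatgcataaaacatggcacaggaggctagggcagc
ZNF595: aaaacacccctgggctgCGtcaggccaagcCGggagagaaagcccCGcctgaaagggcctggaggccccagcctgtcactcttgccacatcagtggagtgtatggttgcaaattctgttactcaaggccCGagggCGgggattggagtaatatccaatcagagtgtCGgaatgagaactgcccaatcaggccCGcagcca
BOD1: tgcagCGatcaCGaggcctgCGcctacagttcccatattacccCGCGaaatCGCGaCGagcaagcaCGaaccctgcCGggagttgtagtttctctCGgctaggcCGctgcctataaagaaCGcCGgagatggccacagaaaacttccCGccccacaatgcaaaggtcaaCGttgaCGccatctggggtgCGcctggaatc
DACH1: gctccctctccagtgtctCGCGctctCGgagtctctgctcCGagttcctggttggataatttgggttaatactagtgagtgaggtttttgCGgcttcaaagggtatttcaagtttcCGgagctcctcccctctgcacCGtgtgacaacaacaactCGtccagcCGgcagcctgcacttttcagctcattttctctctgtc
EPC1: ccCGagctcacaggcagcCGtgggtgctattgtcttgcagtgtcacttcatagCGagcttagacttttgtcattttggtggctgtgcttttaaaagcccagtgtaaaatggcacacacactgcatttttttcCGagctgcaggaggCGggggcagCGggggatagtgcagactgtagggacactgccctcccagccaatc
DUSP8: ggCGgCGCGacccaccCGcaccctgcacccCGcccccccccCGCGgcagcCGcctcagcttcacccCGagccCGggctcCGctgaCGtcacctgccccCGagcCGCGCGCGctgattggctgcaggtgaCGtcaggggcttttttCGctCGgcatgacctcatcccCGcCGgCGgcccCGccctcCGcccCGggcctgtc
These are chr18:34493091-34493290 (plus strand), chr5:124748808-124749007 (minus), chr6:25042171-25042370 (minus), chr4:53086-53285 (plus), chr5:173616660-173616859 (minus), chr13:71867205-71867404 (minus), chr10:32378799-32378998 (minus) and chr11:1572272-1572471 (minus). For DTNA, RIPOR2, BOD1 and DACH1 all 200 bases lie inside the region described for the gene, and for the other 4 genes none do. The ZNF608 run holds 4 CpGs, EPC1 6, RIPOR2 and ZNF595 7, DACH1 9, DTNA 10, BOD1 18 and DUSP8 26.

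The highest H2A.Zac ratios were listed at genes with varied roles. DTNA, which encodes the dystrophin-associated protein alpha-dystrobrevin, had the highest H2A.Zac ratio, 120.2, over a region of 1682 bp that spanned its TSS, and gained H2A.Z covered 71.0% of it at a ratio of 11.6. ZNF608, a zinc finger gene, had an H2A.Zac ratio of 90.7 and an H2A.Z ratio of 24.99 over 2436 bp that began downstream of the TSS, and a second doubly gained region lay on the upstream side. In the gene and 10 kb to each side there were 13 gained H2A.Zac and 10 gained H2A.Z regions and no lost region of either mark. RIPOR2 reached 78.4 for H2A.Zac and 10.8 for H2A.Z. GNG11, a G protein gamma subunit, was covered to 97.5% by gained H2A.Z, with ratios of 70.0 and 15.4. ZDHHC21, a palmitoyltransferase, had ratios of 68.0 and 14.9. The divergent zinc finger genes ZNF568 and ZNF829 share 1 region of 2055 bp, with ratios of 67.9 for H2A.Zac and 17.5 for H2A.Z. Only 29 of the 1838 regions reached an H2A.Zac ratio of 50.

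Ranking by H2A.Z gave a partly different set. ZNF595 led the protein-coding genes with an H2A.Z ratio of 26.1 but an H2A.Zac ratio of only 16.9. BOD1, needed for chromosome biorientation in mitosis, had the higher ratio for H2A.Z as well, 25.1 against 19.1 for H2A.Zac, and gained H2A.Z covered 89.96% of its region. MAT1A, the liver form of methionine adenosyltransferase, had ratios of 52.4 for H2A.Zac and 24.7 for H2A.Z. STXBP5 (tomosyn, a regulator of vesicle fusion), MAF (a bZIP transcription factor) and DMXL2 had H2A.Z ratios of 20.7, 19.9 and 19.3, and ADAM19, a metalloprotease, had 17.6. The DACH1 region, at the gene of a transcription cofactor of the retinal determination network, was 4549 bp wide with an H2A.Zac ratio of 53.7, yet gained H2A.Z covered only 31.6% of it, at a ratio of 11.5. The widest regions were at OR2A12, an olfactory receptor gene (7290 bp), GPC6, a glypican (6976 bp), and PLD1, a phospholipase (6900 bp). Gained H2A.Z covered 26.8% of the OR2A12 region, which ended upstream of the TSS, all of the GPC6 region and 73.0% of the PLD1 region.

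Over all 1838 regions the median H2A.Zac ratio was 7.84, with the middle of the distribution between 5.86 and 11.3 and extremes of 3.19 and 120.2. The H2A.Z ratio, taken as the highest among the gained H2A.Z regions that overlap, was lower and narrower, with a median of 5.42 (4.44 to 6.89) and a highest value of 31.9. An H2A.Zac ratio of at least 10 was found in 585 regions and of at least 20 in 159, an H2A.Z ratio of at least 10 in 130 and of at least 20 in 10, and both reached 10 in 106. Across the 1838 regions the ratios of the marks had a Spearman correlation of 0.44, and the H2A.Zac ratio had one of 0.54 with region width. Both are descriptions, because the regions come from the same libraries and were chosen by the same lists. The median width was 892 bp (544.5 to 1340.75 bp), against 566 bp for the 5410 TSS-proximal H2A.Zac regions gained over unchanged H2A.Z, 971 bp for the 1575 regions that lost both marks and 859 bp for unchanged regions.

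Within the doubly gained regions, which together span 1984.2 kb, 55.8% of the bases lay in gained H2A.Z, 30.9% in unchanged H2A.Z, none in lost H2A.Z and 25.1% in no listed H2A.Z region. The lists of gained and unchanged H2A.Z regions overlap in part, so 11.8% of the bases lay in both and are counted in each share. The median region was covered to 56.6% by gained H2A.Z, and 261 regions (14.2%) to at least 90%. A single gained H2A.Z region accounted for the coverage in 1568 (85.3%). In 1025 regions (55.8%, 53.5 to 58.0%) unchanged H2A.Z also covered at least 25% of the length. In 662 regions the coverage by gained and by unchanged H2A.Z summed to more than 100%, so the same bases carried both listings. The 25% threshold falls in a continuous range. LINC02840 and IST1 were just inside it, at 25.1% each, and the regions at ANAPC16 and at the unnamed gene ENSG00000280129 were just outside, at 24.9% each. Between 25 and 30% there were 165 regions, and between 20 and 25% there were 128 that were not taken.

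An unchanged H2A.Z region was listed within 1 kb of the same TSS for 1519 doubly gained regions (82.6%, 80.8 to 84.3%), and the other 319 had none. Those 319 had a median H2A.Zac ratio of 14.9 (9.94 to 24.3), and the 1519 had one of 7.29 (5.62 to 9.74). Of the 159 regions with an H2A.Zac ratio of at least 20, 108 were among the 319. The 319 were also wider, with a median of 1273 bp against 828 bp, and only 150 of them (47.0%, 41.6 to 52.5%) were nearest to a protein-coding TSS, against 1070 of the 1519 (70.4%, 68.1 to 72.7%). The gained and the unchanged lists come from the same comparison of the lines, and gained H2A.Z chose these regions, so whether H2A.Z is also listed as unchanged is not independent of the gain. The values are a description of the lists, and the part of width in them was not tested. DTNA, ZNF608, GNG11, MAT1A and BOD1 are among the promoters without an unchanged H2A.Z region, and DACH1, ZNF595 and EP400 are among those with one. Unchanged H2A.Zac was also listed within 1 kb of the same TSS for 1440 of the 1838 regions (78.3%, 76.4 to 80.2%). A lost H2A.Zac region was listed there for 203 (11.04%, 9.69 to 12.6%) and a lost H2A.Z region for 44 (2.39%). A promoter or gene called doubly gained can therefore also hold unchanged or lost regions.

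**Figure D1:**
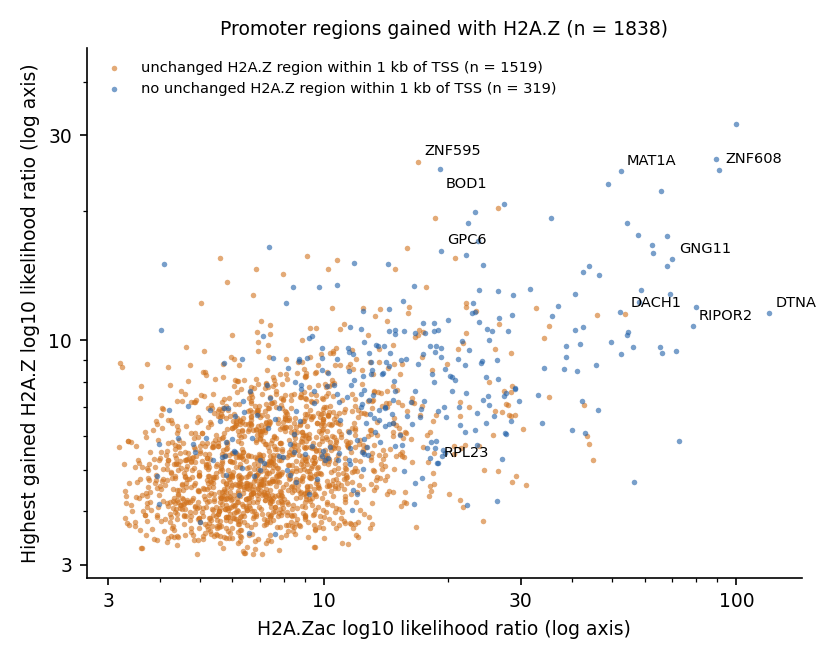
Each point is 1 of the 1838 doubly gained regions, placed by its H2A.Zac log10 likelihood ratio and by the highest log10 likelihood ratio of the gained H2A.Z regions it overlaps, both on log axes. Blue points (319) have no unchanged H2A.Z region within 1 kb of the nearest TSS and orange points (1519) have one. Blue points prevail where the H2A.Zac ratio is above 20, with 108 of 159.

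Sequence and gene type also differed with the H2A.Zac ratio. A TSS was called CpG-dense when the 1001 bases around it had at least 55% GC and an observed to expected CpG ratio of at least 0.65. When the regions were split into 4 groups of equal size by H2A.Zac ratio, CpG-dense TSSs made up 71.1% (66.8 to 75.04%) of the group with the lowest ratios, 62.5% and 64.1% of the middle groups and 38.3% (33.9 to 42.8%) of the group with the highest, whose ratios were 11.3 or more. The share nearest to a protein-coding TSS was 75.9%, 72.8%, 65.1% and 51.7% in the same order. The share with an unchanged H2A.Z region at the TSS was 95.2%, 94.1%, 90.2% and 51.1%, which, as above, is not independent of the gain. The median width was 521, 827, 1081 and 1332 bp, so width moved with the groups, and its part in the other differences was not tested. GC content of the regions itself had a Spearman correlation of only -0.09 with the H2A.Zac ratio.

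**Figure D2:**
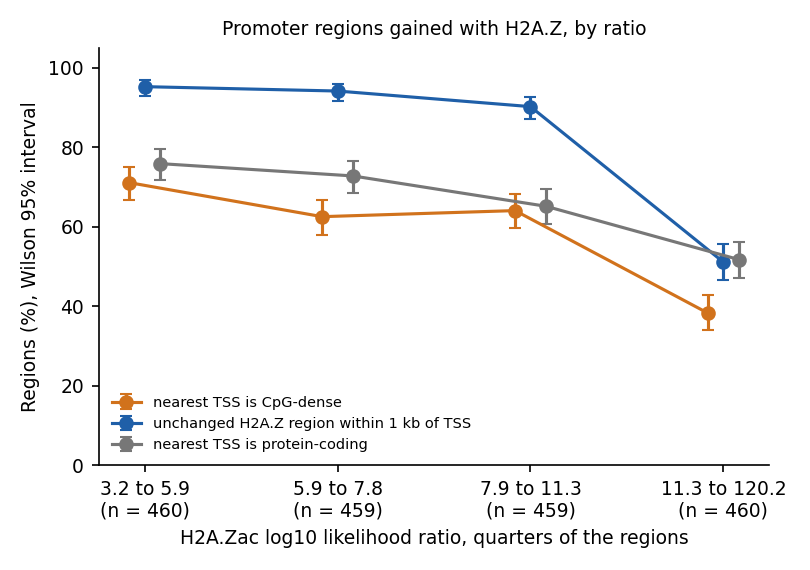
Share of doubly gained regions (percent, with Wilson 95% intervals) that have a CpG-dense nearest TSS, an unchanged H2A.Z region within 1 kb of the TSS or a protein-coding nearest TSS, in 4 groups of regions by H2A.Zac log10 likelihood ratio (459 or 460 regions each). The group with the highest ratios lies below the other groups in all 3 shares.

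Over all 1838 regions, 1084 (59.0%, 56.7 to 61.2%) had a CpG-dense nearest TSS. The share was 67.5% (66.2 to 68.7%) for regions gained over unchanged H2A.Z, 60.3% (59.6 to 61.0%) for unchanged regions, 42.0% (39.9 to 44.1%) for regions gained without H2A.Z and 37.8% (35.5 to 40.3%) for regions that lost both marks. The intervals of doubly gained and doubly lost regions do not meet. Their regions nevertheless had nearly the same median GC content, 54.3% in both, while the median CpG ratio at the TSS was 0.753 for the former and 0.556 for the latter. Among protein-coding genes with H2A.Zac at the TSS, split into 10 groups of similar size by GC content around the TSS, the share with a doubly gained region was 14.2% (12.3 to 16.2%) in the group with the lowest GC content, 15.7% (13.7 to 17.8%) in the third and 9.64% (8.13 to 11.4%) in the highest.

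Doubly gained regions, like most TSS-proximal H2A.Zac regions that were not lost, lay mostly on the downstream side of the TSS. Of the 1838, 1144 (62.2%, 60.0 to 64.4%) were centered downstream and 959 (52.2%) spanned a TSS. The median center was 157.5 bp downstream, whereas that of regions that lost both marks was at -128.5 bp, upstream of it, with 43.9% (41.5 to 46.4%) downstream. Regions gained over unchanged H2A.Z were centered downstream in 63.8% (62.5 to 65.0%), regions gained without H2A.Z in 59.7% (57.7 to 61.8%) and unchanged regions in 56.6% (55.8 to 57.3%), and 52.6% of unchanged regions spanned a TSS. Aligned at their 1769 TSSs, doubly gained H2A.Zac regions covered 54.4% of TSSs at the start site and at most 60.9% at 200 bp downstream. Gained H2A.Z regions had 2 maxima, of 36.1% at 400 bp upstream and 46.7% at 300 bp downstream. Between them the share was 29.96% at the start site and lowest, at 26.9%, 50 bp upstream of it. Unchanged H2A.Z regions at the same TSSs had maxima of 50.7% at 400 bp upstream and 53.7% at 200 bp downstream.

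**Figure D3:**
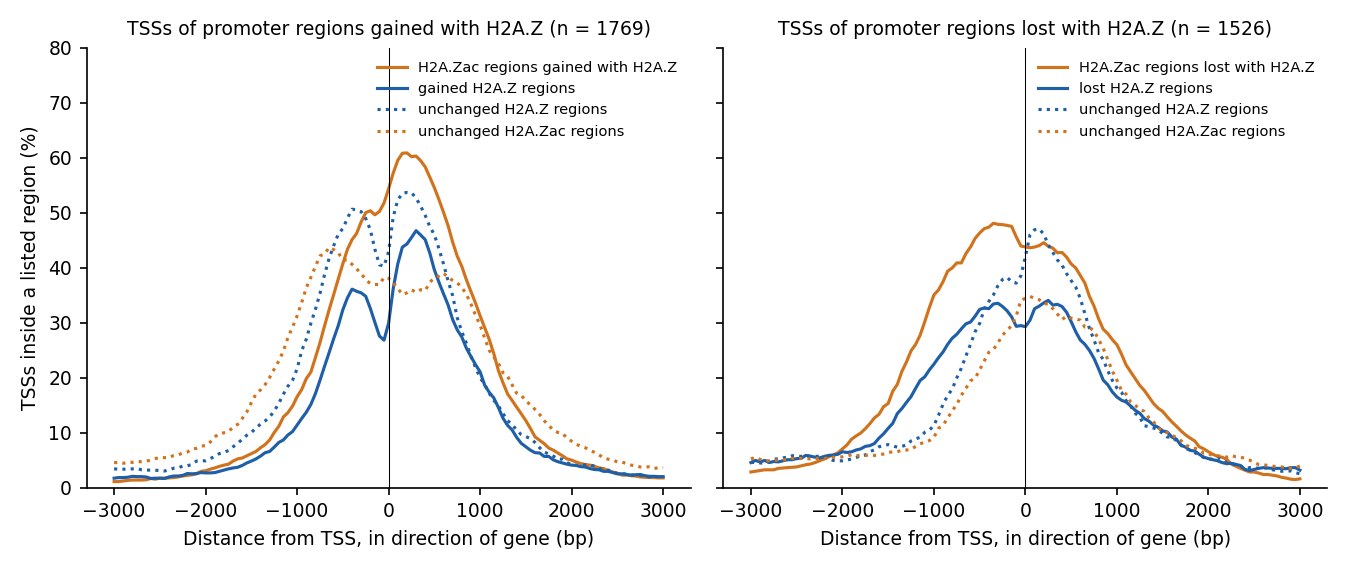
Percent of TSSs that lie inside a listed region at each distance from the TSS (bp, positive in the direction of the gene), for the 1769 TSSs of doubly gained regions and the 1526 TSSs of regions that lost both marks. Solid lines are the changed regions and dotted lines the unchanged ones. Gained H2A.Z dips near the start site, from 46.7% at 300 bp downstream to 26.9% at 50 bp upstream, and lost regions extend further upstream.

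Promoters shared by divergent genes differed between the directions. Of 1584 protein-coding genes with H2A.Zac and another protein-coding TSS on the opposite strand within 1 kb upstream, 244 (15.4%, 13.7 to 17.3%) had a doubly gained region, against 1333 of 10888 other genes (12.2%, 11.6 to 12.9%). Regions that lost both marks were at 3.22% (2.46 to 4.21%) of the former and 9.17% (8.64 to 9.72%) of the latter. Both genes of a divergent pair could be counted, with the same region counting for each. The intervals of the 1584 genes are therefore too narrow. Genes with doubly gained regions had a median length of 36.7 kb, compared with 30.3 kb for all those with H2A.Zac and 22.6 kb for those that lost both marks. They also stood in sparser surroundings. With at most 3 other protein-coding TSSs within 100 kb, 14.3 to 14.4% of genes had a doubly gained region, and with 10 or more 9.43% (7.94 to 11.2%). Inside gene bodies, more than 2 kb from the TSS, 950 H2A.Zac regions were gained and 469 lost at genes with a doubly gained promoter, a gained share of 66.9% (64.5 to 69.3%). The share was 62.5% (60.9 to 64.1%) at genes with a promoter region gained over unchanged H2A.Z, 58.7% (56.9 to 60.5%) at genes whose promoter held only unchanged regions, and 40.5% (37.8 to 43.2%) at genes whose promoter lost both marks.

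Promoter sequences of RefSeq (GRCh38.p14, 250 bases before to 50 after a start) were searched on both strands for 9 short motifs, and 1100 of the 1577 protein-coding genes had one whose start was within 500 bp of the TSS used here. They are compared with the 8159 promoters matched in the same way for all protein-coding genes with H2A.Zac at the TSS, among which they are included. The ETS core CCGGAAG was present in 24.7% (22.3 to 27.4%) of the doubly gained promoters and 20.9% (20.02 to 21.8%) of the 8159. It was present in 25.5% (24.0 to 27.1%) of those gained over unchanged H2A.Z, 18.6% (16.9 to 20.4%) of those with only unchanged regions, 12.0% (9.63 to 14.8%) of those that lost both marks and 10.7% of all 27305 promoters, coding or not. For the other 8 motifs the intervals of doubly gained promoters met those of the 8159. The short NRF1 motif GCGCATGC was in 6% (4.74 to 7.56%) of doubly gained promoters, 6.13% of the 8159, 2.95% (1.87 to 4.62%) of doubly lost ones and 3.27% of all. The SP1 box GGGCGG was in 70.9%, 72.6%, 67.7% and 44.6% in the same order. The MYC box CACGTG was in 8.82%, 10.6%, 12.6% and 7.43%. The core promoter motif TATAAA was in 6.64% (5.31 to 8.26%) of doubly gained promoters, 5.29% of the 8159 and 12.0% of all. It was in 3.98% (3.34 to 4.74%) of those gained over unchanged H2A.Z. Its share was 5.05% (4.16 to 6.13%) with only unchanged regions and 5.90% (4.29 to 8.06%) where both marks were lost. In doubly gained promoters, the 8159 and all promoters, the erythroid motif AGATAA was in 4.73%, 4.62% and 10.5%. The ZNF143 core ACTACAA was in 3.64%, 4.15% and 2.95%, the AP-1 motif TGACTCA in 2.36%, 2.68% and 4.92%, and the E2F motif TTTCGCGC in 1.18%, 1.08% and 0.546%. A match says only that the letters are there, and the part of base composition in the shares of GC-rich motifs was not tested.

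Among gene groups, cytosolic ribosomal protein genes and the subunits of the TIP60 complex itself had the highest shares of doubly gained genes. Neither list stayed the highest under stricter cutoffs. With 50% coverage or ratios of at least 5, the ribosomal protein interval still lay above the share of all protein-coding genes. The TIP60 interval included that share. Of 76 ribosomal protein genes with H2A.Zac at the TSS, 24 (31.6%, 22.2 to 42.7%) had a doubly gained region and 1 had a region that lost both marks, against 12.6% (12.1 to 13.2%) and 8.41% over all protein-coding genes. With at least 50% of the region covered by gained H2A.Z there were 12 of the 76 (15.8%, 9.27 to 25.6%), against 7.50% of all protein-coding genes. With ratios of at least 5 in both marks there were 13 (17.1%, 10.3 to 27.1%), against 6.33%, and at 10 there were 0, against 0.529%. The 24 lie on 14 chromosomes, with 1 on chromosome 5. Their median H2A.Zac ratio was 6.63 (7.47 over all protein-coding genes), with a range of 3.50 to 18.8. RPL23 had the highest H2A.Zac ratio, 18.8, with 5.17 for H2A.Z, followed by RPL9 (12.2 and 5.85) and RPS7 (10.9 and 7.17). RPS25 had the highest H2A.Z ratio of the list, 15.6, at an H2A.Zac ratio of only 5.603. Mitochondrial ribosomal protein genes were nearer the background, with 10 of 75 (13.3%, 7.41 to 22.8%), led by MRPL22 (20.3 and 8.28), and 39 (52%) had a region gained over unchanged H2A.Z. Proteasome subunit genes had 1 of 35, PSMD2 (9.08 and 4.47), and 25 (71.4%) gained over unchanged H2A.Z. That class was present at 21 cytosolic ribosomal protein genes (27.6%) and at 4704 (37.7%) of all protein-coding genes with H2A.Zac.

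Of the 19 genes for EP400/TIP60 subunits, all with H2A.Zac at the TSS, 6 (31.6%, 15.4 to 54.0%) had a doubly gained region and 2 (10.5%) lost both marks. The number of doubly gained genes was 3 (15.8%, 5.52 to 37.6%) with 50% of the region covered, against 7.50% of all protein-coding genes, and 2 (10.5%, 2.94 to 31.4%) with ratios of at least 5 in both marks, against 6.33%. With 500 bp to each side of the TSS it fell from 6 to 2, while the number of all protein-coding genes went from 1577 to 1357. The 6 were EP400 (H2A.Zac ratio 11.2, H2A.Z ratio 4.74), MEAF6 (9.47 and 3.30), EPC1 (8.49 and 6.43), the bromodomain subunit BRD8 (7.36 and 5.53), MORF4L2 (7.08 and 3.19) and the actin-like ACTL6A (4.89 and 5.59). The EP400 region covers the start of the endogenous gene, and both lines also carry an EP400 transgene. Of 10 genes for H2A.Z and other exchange factors 2 (20%, 5.67 to 51.0%) had a doubly gained region and 2 lost both marks. The doubly gained genes were those that encode H2A.Z, H2AZ1 with ratios of 10.5 and 7.44 and H2AZ2 with 7.02 and 6.64. Of 46 E2F target and S-phase genes 8 (17.4%, 9.09 to 30.7%) had a doubly gained region, among them RPA1 (8.85 and 5.23), the licensing factor CDT1 (8.46 and 7.51) and the helicase subunit MCM6 (6.67 and 6.36). Of 34 MYC target and nucleolar genes 6 (17.6%) did, among them BYSL (10.2 and 3.97), HSPE1 (7.90 and 4.21) and NPM1 (5.66 and 5.92). The intervals of the exchange factor, E2F and MYC lists include the background of 12.6%.

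The intervals of the developmental and lineage lists all included that background. FOX and SOX genes had 6 of 32, with FOXJ1, FOXN4 and FOXO6 at H2A.Zac ratios of 23.3, 14.4 and 14.4, and HOX genes had 3 of 18, among them HOXD8 and HOXC13, at 16.4 and 6.28. Homeobox genes outside the HOX clusters had 2 of 51 (3.92%, 1.08 to 13.2%), MEIS2 and PITX1, and 9 (17.6%) that lost both marks, against 8.41% of all protein-coding genes. Axon guidance genes had 1 of 33, SEMA4C, and 8 (24.2%) that lost both marks, and WNT and FZD genes had 0 of 18 (upper Wilson bound 17.6%). Both marks were also lost at 3 HOX genes (16.7%), 3 WNT and FZD genes (16.7%), 4 of 22 myeloid genes (18.2%) and 4 of 20 lymphoid genes (20%). These losses rest on 3 or 4 genes per list and are given without intervals. They do not set these lists apart from all protein-coding genes. Erythroid genes, which K562 cells express, had 2 of 40 (5.00%, 1.38 to 16.5%), ICAM4 and UROS, a heme biosynthesis enzyme. Of 16 megakaryocyte, 22 myeloid and 20 lymphoid genes 1 each was doubly gained, the thromboxane receptor gene TBXA2R (13.2 and 5.69), the Fc receptor gene FCGR2A (14.9 and 10.3) and the B cell factor EBF1 (16.9 and 10.3). The glutamate receptor gene GRIA2 (25.6 and 10.5) and GABRE (14.9 and 14.7) were 2 of 19 synaptic genes. EGR1 (17.4 and 9.32), FOSL1 (14.1 and 8.88) and JUND (12.4 and 5.03) were 3 of 21 AP-1 and early growth response genes. The ZNF genes, the longest list, had 41 of 414 (9.90%, 7.38 to 13.2%).

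**Figure D4:**
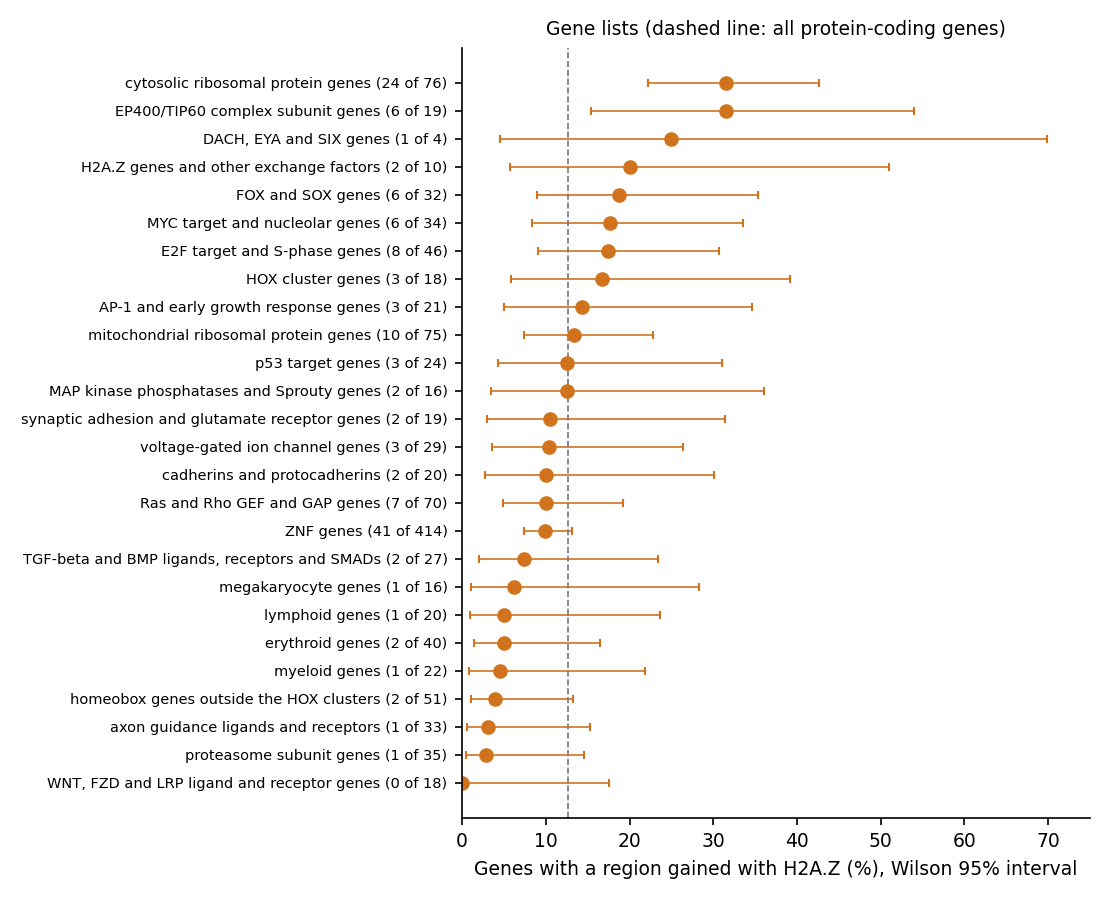
Percent of genes in each list that have a doubly gained region at their TSS, among those with any H2A.Zac region there (numbers in parentheses), with Wilson 95% intervals. The dashed line marks 12.6%, the share over all protein-coding genes. The intervals of the ribosomal protein list (24 of 76) and of the EP400/TIP60 list (6 of 19) lie wholly above the line.

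In gains, the remaining lists were close to the background or small. Voltage-gated ion channel genes had 3 of 29 (KCNH2, KCNG3 and SCN3B) and 7 (24.1%) that lost both marks, against 8.41% of all protein-coding genes. Small GTPase regulators had 7 of 70, with RAPGEF6 (18.7 and 5.83) and ARHGEF37 (16.4 and 7.17) highest, and cadherin genes 2 of 20, PCDHGA4 (20.5 and 7.64) and PCDHGA7. TGF-beta and BMP genes had 2 of 27, SMAD5 (9.56 and 5.54) and BMPR1A (3.36 and 5.82). MAP kinase phosphatase and Sprouty genes had 2 of 16, DUSP10 (10.3 and 6.39) and DUSP8 (9.36 and 4.14), p53 targets 3 of 24 (PERP, SESN2 and ZMAT3), and the list around DACH1 1 of 4, DACH1 itself. In the developmental, lineage and remaining lists for which no loss is given, 0 to 12.5% of the genes lost both marks.

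The regions were spread unevenly over the chromosomes. On chromosome 5, 162 of 1252 TSS-proximal H2A.Zac regions (12.9%, 11.2 to 14.9%) were doubly gained, and on chromosome 6 174 of 1727 (10.1%, 8.74 to 11.6%), whereas the median over 23 chromosomes was 5.58%. The lowest shares were 1.66% (0.973 to 2.82%) on chromosome 20 and 2.65% (2.07 to 3.40%) on chromosome 19. Counted by protein-coding genes, 29.3% (25.6 to 33.4%) of those with H2A.Zac on chromosome 5 had a doubly gained region, 22.4% on chromosome 6 and 2.91% on chromosome 20. Regions that lost both marks were at 4.79% of the TSS-proximal H2A.Zac regions of chromosome 5 and 12.1% of those of chromosome 20. Without chromosome 5 the share of all TSS-proximal H2A.Zac regions that were doubly gained was 5.46%, and without chromosome 19 it was 5.99%.

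**Figure D5:**
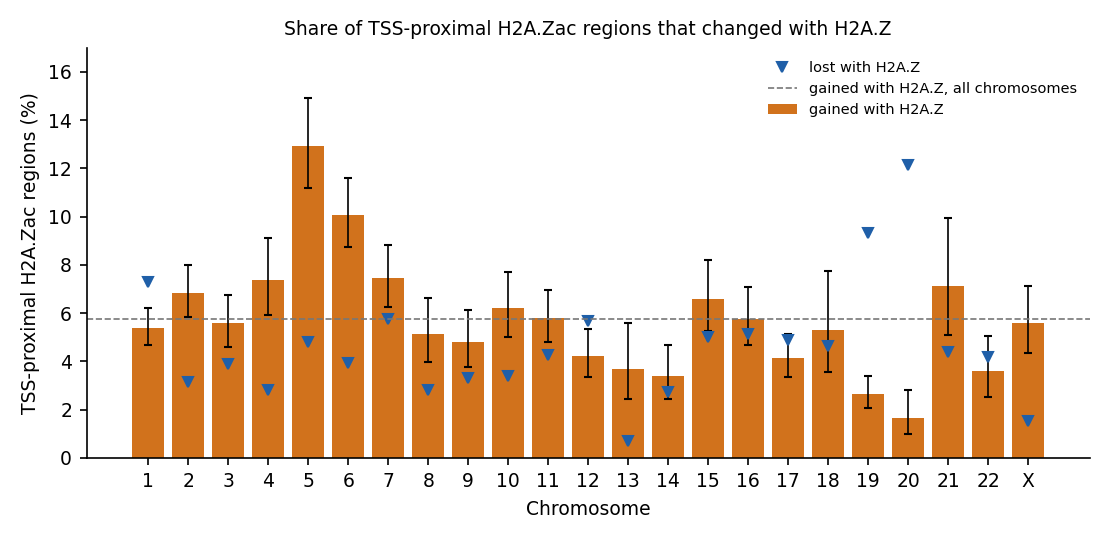
Percent of TSS-proximal H2A.Zac regions on each chromosome that were doubly gained (bars, with Wilson 95% intervals) or lost with H2A.Z (triangles). The dashed line is the doubly gained share over all chromosomes, 5.75%. Chromosomes 5 and 6 stand above it, at 12.9 and 10.1%, and chromosomes 19 and 20 below it, where the triangles are highest.

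The high shares were regional, on chromosome 5 and elsewhere. In 5-Mb windows of chromosome 5, 12 of 21 TSS-proximal H2A.Zac regions (57.1%) between 155 and 160 Mb were doubly gained, 7 of 19 between 160 and 165 Mb, 5 of 10 between 165 and 170 Mb, 16 of 50 between 150 and 155 Mb and 14 of 41 between 145 and 150 Mb. The 4 windows from 120 to 140 Mb had 8 of 23, 5 of 24, 19 of 92 and 20 of 77. Another high window was 15 to 20 Mb (6 of 26, all at the near-identical TAF11L genes), while there were 0 of 39 in the first 5 Mb and 2 of 101 between 175 and 180 Mb. On chromosome 6 the 8 windows from 135 to 175 Mb had 19.4 to 27.6%, for example 14 of 54 between 155 and 160 Mb. On chromosome 3 the windows from 165 to 185 Mb had 5 of 13, 12 of 46, 7 of 31 and 14 of 76. EBF1 and ADAM19 lie between 155 and 160 Mb of chromosome 5 and MRPL22 between 150 and 155 Mb. Over the 554 windows with at least 10 TSS-proximal H2A.Zac regions, 24 had more than 20% doubly gained and 84 had none. Most regions nonetheless stood alone, with 1348 farther than 50 kb from the next. The largest cluster, at chr5:140639475-140718781, held 6, at TMCO6, MIR3655, WDR55, the histidyl-tRNA synthetase gene HARS2, the vault RNA gene VTRNA1-2 and an unnamed gene, with H2A.Zac ratios of 3.73 to 8.99. Since the lines are 1 clone each, regional differences between clones cannot be told apart from those between the forms of EP400.

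Not all of these promoters belong to protein-coding genes. The nearest TSS was that of a protein-coding gene for 1220 regions (66.4%, 64.2 to 68.5%), a lncRNA for 451 (24.5%, 22.6 to 26.6%), a processed pseudogene for 51 and a miRNA for 27. Of unchanged TSS-proximal regions 68.4% (67.7 to 69.1%) were nearest to a protein-coding gene and 23.5% (22.9 to 24.1%) to a lncRNA. The protein-coding share was 72.4% (71.2 to 73.6%) for regions gained over unchanged H2A.Z and 53.3% (51.2 to 55.4%) for those gained without H2A.Z, so doubly gained regions lay between them. Non-coding genes more than 5 kb from any protein-coding TSS were nearest to 398 doubly gained regions (21.7%, 19.8 to 23.6%), 19.1% (18.5 to 19.7%) of unchanged regions, 14.6% (13.7 to 15.5%) of those gained over unchanged H2A.Z, 31.4% (29.5 to 33.4%) of those gained without H2A.Z and 32.6% (30.3 to 34.9%) of regions that lost both marks. The 398 regions belong to 385 such genes, and some had ratios among the highest. The lncRNA ENSG00000234710, at chr7:9620350-9622486 and 1188 kb from a protein-coding TSS, had ratios of 99.7 for H2A.Zac and 31.9 for H2A.Z, the highest H2A.Z ratio of all 1838 regions. The processed pseudogenes SOWAHCP5 on chromosome 2 and RHOT1P1 on chromosome 18 had ratios of 89.4 and 26.5, and of 79.96 and 12.0. Pseudogenes resemble their parent genes, so reads could be placed at more than 1 copy.

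The same holds for gene arrays. The TAF11L genes are near-identical copies on the short arm of chromosome 5, and 6 of them carried doubly gained regions in a pair of groups, with H2A.Zac ratios of 56.0 to 72.7 at TAF11L3, TAF11L5 and TAF11L6 and of 44.9 to 71.4 at TAF11L8, TAF11L9 and TAF11L10. Which copies carried the signal is uncertain. LIMS4, which shares its TSS with ENSG00000257207 (H2A.Zac ratio 22.4, H2A.Z ratio 18.8), and ARHGAP11A (14.2 and 11.1) also have close copies elsewhere in the genome.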

How the data were processed

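ChIP-seq of H2A.Z and H2A.Zac in the WT and ΔTRRAP lines was analysed from the 6 lists of regions that the authors deposited. They aligned reads to hg38 with Bowtie2 2.4.5, called peaks with MACS2 2.2.7.1, merged the replicates, compared the lines with bdgdiff and retained a region if 25% or more of it was inside reproducible peaks (IDR cutoff 0.05). No filter on reads with several placements is named in the sources used here. The score of each deposited region is the authors' log10 likelihood ratio, used here to rank and filter. Depth per library is unknown, so no precision can be given for a region.

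TSSs came from GENCODE release 44 (release 32 in the study), and sequence from hg38 and RefSeq. Coverage was computed with numpy 2.4.6 and pandas 2.3.3, tested on simulated data, and compared with bedtools 2.31.1 for 24844 regions, with 0 differing. Shares carry Wilson 95% intervals (scipy 1.17.1). CpG-dense means at least 55% GC and a CpG ratio of at least 0.65 in 1001 bases.

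The regions, gene lists and tests were chosen with earlier results of these data known. Genes were named by rule, as the 10 with the highest H2A.Zac and H2A.Z ratios, up to 3 per list, DACH1, those at the 25% threshold, the 3 widest regions and 3 non-coding genes. BRD8, MORF4L2, ACTL6A, RPS25 and the genes of clusters and copy arrays were named after their values were seen. Alternatives covered the overlap, the TSS window and annotation, the ratio cutoff, merging, width and chromosomes. Inputs, expression and enhancers were not analysed here. Some items are not reported here.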

Additional observations from a re-analysis of the deposited data

How the results depend on the processing

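No paired analysis was possible because the lists hold no value per replicate, which is also why no replicate was left out. The number of doubly gained regions fell from 1838 to 1102 with at least 50% of the length covered, and to 944 and 95 with ratio cutoffs of 5 and 10 in both marks, where the 25% coverage had to be met again by the H2A.Z regions that passed (both ratios alone reached 5 in 998 regions and 10 in 106). The number of genes was 1513, 1318 and 121 under these settings and 1577 with protein-coding TSSs only, and the number of ribosomal protein genes was 12, 13 and 0. The number of TIP60 subunit genes was 3, 2 and 0, and 2 with 500 bp to each side of the TSS. Over all protein-coding genes it was 935, 790 and 66, and 1357 with 500 bp, against 1577. The recounts of both lists and of all protein-coding genes under these settings were added after seeing the data. The share of TSS-proximal gained H2A.Zac regions was 11.7%, 14.0% and 6.39% under the same 3 settings, 23.3% with at least 1 bp covered, 24.9% for regions of at least 500 bp and 18.6% without chromosome 5, which was chosen after seeing the data.

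The composition depended on the ratio cutoff. At 5 and 10 the share of CpG-dense TSSs was 53.2% and 41.1%, that of protein-coding nearest TSSs 62.8% and 58.9%, and that with an unchanged H2A.Z region at the TSS 70.1% and 30.5%. The last share was 77.1% with 50% of the length covered, 79.9% for regions of at least 500 bp and 80.3% with 2 kb to each side of the TSS. With 2 kb, CpG-dense TSSs made up 56.5% and the median GC content was 53.4%, against 55.02% with 500 bp and 53.02% at a cutoff of 10. The share centered downstream ranged from 60.8% to 64.4%, the latter for regions of at least 500 bp. Under the other settings tried, these results stayed within 1.5 times the reported count or within the interval of the reported share or median. The divergent promoter and gene density shares were recomputed only with single chromosomes left out, giving 14.7 to 16.4% for divergent promoters and 8.55 to 10.7% for the densest surroundings. The motif, ratio group, GC group, position profile, gene body and chromosome results were not recomputed, and values of the other gene lists under other settings are not given. Unknown depth limits all of these counts, since a region just under the cutoff is not listed as gained.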
